A study of Gossypium barbadense and Gossypium hirsutum with 4 samples.

Results

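Chromosomes A01 and D01 are the first homoeologous pair of allotetraploid cotton, the A-subgenome and D-subgenome versions of one ancestral chromosome kept together in the same nucleus. All CENH3 islands listed for these chromosomes were taken, by chromosome name alone, from the G. barbadense list (Hai7124) and the G. hirsutum list (TM_1). They numbered 13039 of the 156610 islands in both lists, with 3565 on A01 and 1998 on D01 in G. barbadense, and 5458 on A01 and 2018 on D01 in G. hirsutum. The pairing of A01 with D01 rests on the names, since no sequence was compared here.

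CENH3 is the centromeric variant of histone H3. Its nucleosomes form the foundation on which the kinetochore assembles, so the stretch of chromatin that holds them marks the working centromere. Plant centromeres are usually built from long runs of satellite repeats and retrotransposons, and cotton centromeres are known to be rich in retrotransposon sequence. Homoeologous chromosomes descend from one chromosome but can differ in size and in centromere position.

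Every library came from leaf collected 4 weeks after planting, digested with micrococcal nuclease. For each species there was 1 library precipitated with an antibody against CENH3 (AbMax) and 1 input library without antibody, 4 libraries in all. No library had a replicate, so no test between species or between chromosomes was made. The intervals below are 95% exact intervals (binomial for ratios of reads, Poisson for counts of islands). They cover counting error only and leave out variation between libraries. PCR copies of a molecule cannot be told from separate molecules, so the intervals may be too narrow even for counting error. An island is a run of windows in which the authors found more ChIP than scaled input reads. For each one a scaled ratio was taken, the ChIP reads over the input reads times the ratio of library sizes (1.64 in G. barbadense, 1.20 in G. hirsutum). Input counts below 3 were set to 3, so the ratio of such an island is a lower bound. No source used here names the genome builds, and the assemblies of the lists differ. Positions are therefore compared between species only in percent of the mapped length, which is the end of the last island. Widths, covered lengths, densities and ratios are also set side by side between species. The part of the assemblies in those differences was not tested. No gene or repeat annotation was assigned to any position.

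The mapped lengths were 115.1 Mb for A01 and 63.3 Mb for D01 in G. barbadense, and 118.2 Mb and 64.0 Mb in G. hirsutum. In G. barbadense the islands of A01 held 182808 ChIP and 110113 input reads, and those of D01 held 124223 and 55394. In G. hirsutum the sums were 368343 and 209861 on A01 and 140594 and 82242 on D01. These sums move with how much of a chromosome was called and are not depths. A01 made up 5.28% of the mapped length of G. barbadense and 5.27% of its islands. In G. hirsutum, A01 again took 5.28% of the length, but 6.13% of the islands. D01 took 2.90% of the length and 2.95% of the islands in G. barbadense, against 2.86% and 2.27% in G. hirsutum.

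Each chromosome carried 1 narrow block of dense, strongly enriched islands, just past its middle, in both species. In G. barbadense the block, called the CENH3 domain here, lay from 64.3 to 65.7 Mb on A01 and from 33.9 to 35.4 Mb on D01. In G. hirsutum it lay from 66.0 to 67.1 Mb on A01 and from 33.7 to 34.9 Mb on D01. The domain is the run of 100-kb bins around the chromosome's maximum in which the length-weighted log2 ratio, smoothed over 5 bins, passed 25% of the way from the median to that maximum. It is therefore chosen as the most enriched stretch, and its enrichment is a description. In G. barbadense the maximum stood 19.1 times above the highest site elsewhere on A01 and 26.7 times above it on D01. The corresponding G. hirsutum values were 2.96 and 2.82.

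**Figure D1:**
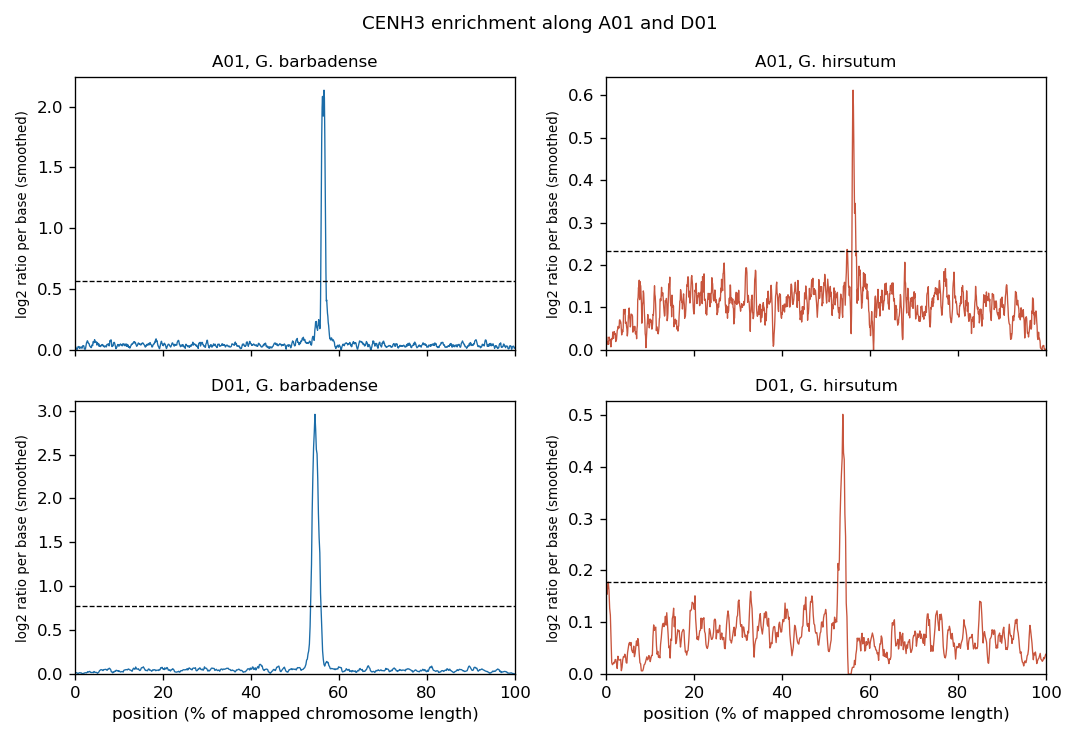
Length-weighted log2 scaled ratio per base in 100-kb bins, smoothed over 5 bins, against position in percent of the mapped length; each panel is 1 chromosome in 1 species with its own vertical scale, and the dashed line is the domain threshold. The tallest peak of each panel, with its domain midpoint between 53.6 and 56.5% of the length, sets the domain, and the G. hirsutum panels have a higher floor relative to the peak.

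The relative position of the domain was close between species. On A01 the midpoint lay at 56.5% of the length in G. barbadense and at 56.3% in G. hirsutum, a difference of 0.14 percentage points, the fourth smallest of 26 chromosomes. On D01 it lay at 54.7% and 53.6%, a difference of 1.10 points, against a median of 0.665 points over the 26. Both homoeologues were thus split nearly evenly, with a long to short arm ratio of 1.30 on A01 and 1.21 on D01 in G. barbadense, and of 1.29 and 1.16 in G. hirsutum. The homoeologues also lay close to each other, at 1.77 points apart in G. barbadense and 2.73 points apart in G. hirsutum, with A01 farther along in both. Among the 13 pairs this was the second smallest distance in each species, where the medians were 9.23 and 12.6 points. The medians include G. hirsutum chromosomes whose highest site was not distinct from other sites. They also include distinct but weak sites far from the G. barbadense position. Such sites were those of D02 (ChIP to input ratio 1.49, 47.6 points away), D08 (2.98, 17.45 points away) and D05 (2.67, 11.64 points away).

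The position was less secure in G. hirsutum. When bins were scored by covered length alone, the highest site of G. hirsutum A01 moved to 54.8% and that of D01 to 0.391% of the length, at the chromosome's start. The 6 other settings tried left both midpoints inside the domain, and the G. barbadense midpoints stayed inside it in all 7.

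The domains were similar in width and very different in filling. They spanned 1.4 Mb on A01 and 1.5 Mb on D01 in G. barbadense, and 1.1 and 1.2 Mb in G. hirsutum, so that A01 and D01 differed by 1 bin of 100 kb in each list and the species by 3 bins. From islands of ratio 4 or more alone the widths were 1.3 and 1.4 Mb in G. barbadense and 1.3 and 1.0 Mb in G. hirsutum, so the order of A01 and D01 was not stable, and with that setting the A01 domains of the species had the same width. D01 is the shorter chromosome, so its domain took 2.37% of its length in G. barbadense and 1.88% in G. hirsutum, against 1.22% and 0.931% on A01. Inside them G. barbadense had 360 islands on A01 and 397 on D01, while G. hirsutum had 112 and 88. Islands covered 35.6% of the A01 domain and 45.2% of the D01 domain in G. barbadense. The G. hirsutum shares were 12.8% and 12.2%, so the covered length was 3.56 times as large in G. barbadense on A01 (499 against 140 kb) and 4.64 times as large on D01 (678 against 146 kb). Beyond 5 Mb from the domains, islands covered 3.65% (A01) and 3.2% (D01) in G. barbadense and 9.31% and 6.71% in G. hirsutum. Coverage of the G. hirsutum domains was thus much closer to that of their arms. The A01 domain of G. barbadense was thinly filled for its list, with the second lowest covered share of 26 chromosomes (median 43.4%). It also stood 9.60 percentage points below its homoeologue, the largest shortfall of an A chromosome among the 13 pairs of that list.

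ChIP reads exceeded scaled input reads in the domain islands by 25.5 times on A01 (95% interval 24.6 to 26.4) and by 22.9 times on D01 (22.2 to 23.7) in G. barbadense. In G. hirsutum the ratios were 10.4 (9.69 to 11.2) on A01 and 6.65 (6.25 to 7.07) on D01. The A01 domain of G. hirsutum had the second highest ratio of that list, where the median over 26 chromosomes was 7.29. That median is lowered by weak sites far from the G. barbadense position, such as those of A07 (2.68) and D02 (1.49). The order of the homoeologues was not stable. With the domain threshold at 50% instead of 25%, D01 was higher in both species, at 37.1 against 32.7 in G. barbadense and 10.8 against 10.2 in G. hirsutum, where the intervals overlapped. Bins scored by covered length also put D01 higher in G. barbadense, at 16.2 against 13.5. With islands of ratio 4 or more alone, the G. hirsutum values were 11.1 (10.2 to 12.15) on D01 and 10.4 (9.74 to 11.2) on A01, with overlapping intervals. Across species, the ratio was 2.45 times as high in G. barbadense on A01 and 3.45 times on D01. With 1 library per species, species and library cannot be told apart.

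Domain islands of G. barbadense held more ChIP reads per kb than those of G. hirsutum, while input reads per kb were alike on A01 and lower in G. barbadense on D01. There were 95.8 ChIP reads per kb on A01 and 80.6 on D01 in G. barbadense, and 53.4 and 45.3 in G. hirsutum. Input reads per kb in the same islands were 6.17 and 5.76 in G. barbadense and 6.18 and 8.21 in G. hirsutum. These reads per kb are raw and not scaled for library size. Islands more than 5 Mb from a domain had 23.6 and 24.2 input reads per kb in G. barbadense and 19.3 and 19.5 in G. hirsutum, on A01 and D01 in that order. Domain islands thus had fewer input reads per kb than distant islands on both chromosomes of both lists, and the part of this in the ratios was not tested.

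Most islands in the domains were strong, with a lower share on G. hirsutum D01. A scaled ratio of 4 or more was reached by 350 of the 360 domain islands on A01 (97.2%) and by 376 of the 397 on D01 (94.7%) in G. barbadense, where 28.6% of all islands in the list reached it. In G. hirsutum it was reached by 109 of 112 (97.3%) on A01 and by 73 of 88 (83.0%) on D01, against 9.75% of its list. A ratio of 8 or more was reached by 332 and 339 domain islands in G. barbadense (list background 16.5%) and by 83 and 58 in G. hirsutum (list background 2.66%). Since the same ratios place the domain, these shares are no separate evidence for it. Over whole chromosomes, 21.3% of A01 islands and 38.6% of D01 islands reached 4 in G. barbadense, and 9.58% and 10.95% did in G. hirsutum.

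The islands of highest ratio had almost no input reads. They are ordered with input counts below 3 set to 3, so the true order among them is not known. On G. barbadense A01 the island from 64690801 to 64693400 came first, with 365 ChIP and 4 input reads and a ratio of 150 (58 to 552). The next on that chromosome, from 65044001 to 65045400, had 246 ChIP and 2 input reads and a ratio of at least 134. The third, from 64505201 to 64508000, had 239 ChIP and 0 input reads, for a ratio of at least 131. These 3 islands were 1400 to 2800 bp long and lay in the first and middle segments when the domain is cut into 3 equal ones.

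On G. barbadense D01 the island from 34318801 to 34322200 had 409 ChIP reads and 0 input reads, giving a ratio of at least 223. Its neighbour in rank, from 34498801 to 34504600, was better measured, with 933 ChIP and 10 input reads and a ratio of 153 (82.8 to 320). The island from 34747201 to 34750000 followed with 340 ChIP and 4 input reads, a ratio of 139 (53.9 to 514). All 3 lay between 34.3 and 34.8 Mb, away from the edges of the D01 domain.

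The G. hirsutum islands of highest ratio had fewer ChIP reads, and their ratios are all lower bounds. On A01 the top island, from 66834601 to 66835400, had 93 ChIP and 2 input reads and a ratio of at least 37.3. The islands from 66713001 to 66714200 (72 ChIP, 0 input reads) and from 66633801 to 66635200 (59 ChIP, 0 input reads) followed at no less than 28.9 and 23.7. On D01 the island from 34393201 to 34393800 had 66 ChIP and 0 input reads, for a ratio of at least 26.5. Those from 34942001 to 34943000 and from 34968201 to 34969400 had 66 and 59 ChIP reads with 2 input reads each, and ratios of at least 26.5 and 23.7. They lay just past the called end of the D01 domain, which is taken up below.

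Many domain islands gave only lower bounds. In G. barbadense 170 of 360 on A01 (47.2%) and 174 of 397 on D01 (43.8%) had fewer than 3 input reads. The G. hirsutum counts were 30 of 112 (26.8%) and 25 of 88 (28.4%). The median island ratio in the domain, with these at their bound, was 24.6 on A01 (interquartile range 13.9 to 39.1) and 23.4 on D01 (12.02 to 40.6) in G. barbadense. In G. hirsutum it was 10.1 (7.94 to 13.3) on A01 and 9.46 (6.54 to 12.5) on D01. The interquartile ranges of A01 and D01 overlapped within each species. The medians of the homoeologues were closer to each other than the pooled ratios were.

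**Figure D2:**
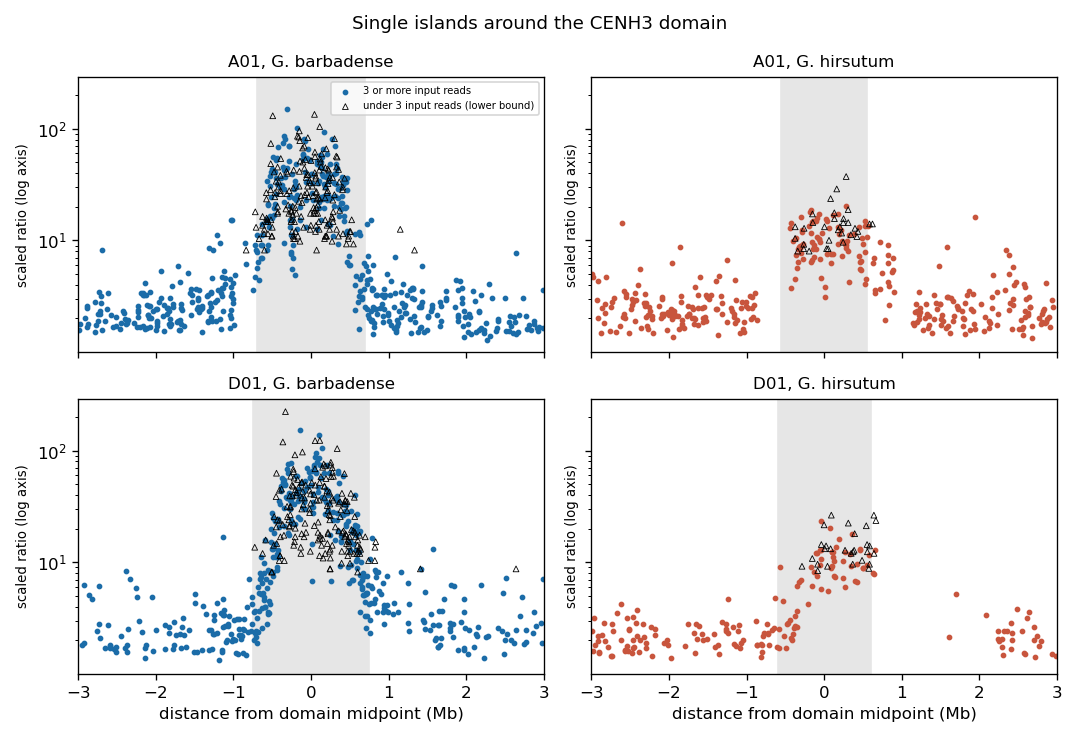
Scaled ratio of each island (log axis) against its distance from the domain midpoint in Mb, for 3 Mb either side; grey shading is the domain, filled points have 3 or more input reads and open triangles have fewer, so that their ratio is a lower bound. Ratios rise from about 2 outside to medians of 23.4 and 24.6 in the G. barbadense domains and 9.46 and 10.1 in the G. hirsutum domains, and G. hirsutum D01 has an empty stretch to the right of its domain.

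The longest strong domain islands were longer in G. barbadense than in G. hirsutum. The longest domain island of ratio 4 or more on G. barbadense A01 ran from 65374801 to 65389600 (14800 bp, 1882 ChIP and 143 input reads) with a ratio of 21.6 (18.2 to 25.8). On D01 the island from 35325401 to 35342400 spanned 17000 bp at the far edge of the domain and reached only 5.11 (4.33 to 6.06). In G. hirsutum the longest were 6400 bp on A01, from 66374601 to 66381000 with a ratio of 11.7 (8.01 to 17.6), and 7200 bp on D01, from 34629201 to 34636400 with a ratio of 11.8 (8.36 to 17.1). Of the islands of 5 kb or more, 27 of 36 lay in the domain on G. barbadense D01 and 12 of 45 on A01. In G. hirsutum, 3 of 231 lay there on A01 and 5 of 91 on D01. Of islands of any length, the domain held 19.9% on D01 and 10.1% on A01 in G. barbadense. The G. hirsutum domains held 2.05% on A01 and 4.36% on D01, near the shares of their long islands. The long islands outside the domains were weak, with median ratios between 1.71 and 1.997 on both chromosomes of both lists.

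Enrichment was not even across the domains, and on D01 both species had a weak shoulder on the low-coordinate side. When each domain was cut into 3 equal segments, the first segment of D01 had a ratio of 13.0 (12.4 to 13.6) in G. barbadense, against 56.5 (52.6 to 60.9) in the middle and 18.7 (17.5 to 19.9) in the last. In G. hirsutum D01 the first segment had 3.19 (2.92 to 3.49), the middle 11.1 (9.84 to 12.5) and the last 11.4 (9.84 to 13.2). The D01 shoulder was well covered by islands all the same, with 48.4% of the first segment covered in G. barbadense and 13.2% in G. hirsutum.

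In steps of 100 kb, the D01 ratio in G. barbadense was 3.23, 4.97 and 8.37 over the first 3 bins (33.9 to 34.2 Mb) and 37.2 in the next. It then stayed between 38.3 and 69.1 up to 35.1 Mb and dropped to 19.1, 17.9 and 5.36 in the last 3 bins. The D01 domain of G. hirsutum opened at 2.46, 2.38 and 3.86 from 33.7 to 34.0 Mb, passed 5.50 and 9.14, and stayed between 9.01 and 13.1 from 34.2 Mb to its called end. The G. hirsutum profile of D01 was therefore one-sided, with no fall on the high-coordinate side.

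A01 had the opposite lean in G. barbadense. Its first, middle and last segments had ratios of 29.3 (27.5 to 31.3), 45.6 (42.0 to 49.6) and 15.2 (14.4 to 16.0). By 100-kb bins it rose from 9.43 to 25.1 at once, reached 60.6 between 64.9 and 65.0 Mb and ended at 5.10 and 3.05 in the last 2 bins. In G. hirsutum the A01 segments were closer together, at 9.09 (8.08 to 10.3), 11.8 (10.5 to 13.2) and 10.3 (8.99 to 11.9); the intervals of the middle and last segments overlapped, and that of the first lay just below the middle one. By 100-kb bins it varied from 7.03 (5.59 to 8.93) in the last to 16.3 (11 to 25) from 66.6 to 66.7 Mb and 19.1 (10.7 to 37.5) from 66.9 to 67.0 Mb, the last of these resting on 12 input reads. Its first bin, from 66.0 to 66.1 Mb, held no island midpoint and entered the domain through the smoothing.

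**Figure D3:**
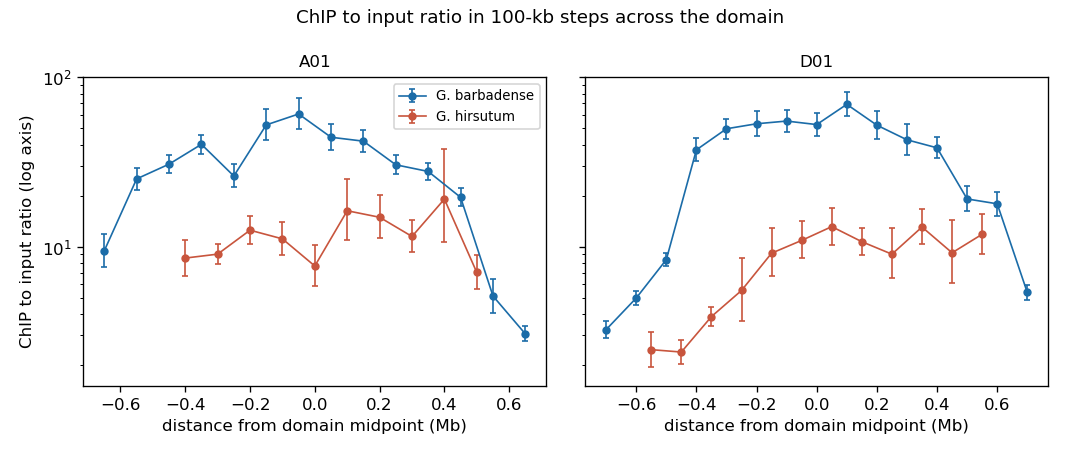
Summed ChIP over scaled input reads of the islands in each 100-kb bin of the domain (log axis) against distance from the domain midpoint in Mb; bars are 95% exact binomial intervals for counting error. D01 starts at 3.23 in G. barbadense and rises to 69.1 before it falls to 5.36, while D01 in G. hirsutum starts at 2.46 and has no such fall; A01 in G. barbadense falls to 3.05 at its right end.

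Gaps between islands were short inside the G. barbadense domains, with a median of 1.2 kb on both chromosomes and a longest of 28.0 kb on A01 and 17.8 kb on D01. The D01 value was among the shortest of the list, 24th of 26 when ranked from the longest. In G. hirsutum the median gaps were 4.2 kb on A01 and 6.6 kb on D01, and the longest were 64.8 and 70.8 kb.

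Just outside the domains the islands thinned out within about 2 Mb in G. barbadense. On A01 there were 88.5 islands per Mb within 1 Mb of either edge, 62.5 between 1 and 2 Mb, 31.5 between 2 and 5 Mb and 25.5 beyond 10 Mb. On D01 the density was 62.0, 36.5, 28.2 and 23.4 per Mb at those distances. The median ratio was 2.77 on A01 and 3.06 on D01 in the first Mb and 2.06 and 2.31 in the next, against 2.14 and 2.54 beyond 10 Mb. The rim of raised ratios was thus 1 Mb wide or less, and the rim of raised density was wider on A01.

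G. hirsutum had no such slope in density. On A01 there were 46.5 islands per Mb within 1 Mb of an edge, 63.0 between 1 and 2 Mb, 45.3 between 2 and 5 Mb, 54.5 between 5 and 10 Mb and 44.4 beyond 10 Mb. The median ratio there was 2.60 in the first Mb and 2.16 beyond 10 Mb. Around D01 the density within 1 Mb was 22.0 per Mb, below the 30.7 found beyond 10 Mb. This low value came from the high-coordinate side, where the first Mb past the domain held 6 islands, against 38 on the other side. Those 6 islands all lay within 69.4 kb of the domain's called end, with ratios from 7.83 to 26.5 and 244 ChIP against 15 input reads in sum (ratio 19.6, interval 11.6 to 35.5). They were followed by 946 kb without an island, from 34969401 to 35915400, the longest such stretch on D01 in that list. The strongly enriched run on G. hirsutum D01 therefore went on to the border of that stretch, and the domain's right end is set by it and by the smoothing.

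A stretch without an island also bordered the A01 domain of G. hirsutum, on the other side. It ran for 432 kb from 65682801 to 66114600, at 55.8% of the length, and reached into the called domain. Neither G. barbadense domain had a stretch of 300 kb or more beside it. The lists hold no value for sequence between islands, so CENH3 there is unknown.

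Several long stretches without islands recurred at the same relative position of A01 in both species. This was noticed after the values were seen. G. barbadense A01 had 8 stretches of 300 kb or more and G. hirsutum A01 had 7, of which 6 and 5 lay within 0.5 percentage points of one in the other list. The longest of each list was of this kind, 610 kb at 60.5% in G. barbadense and 621 kb at 60.8% in G. hirsutum. The others lay at 9.37 and 9.13% (496 and 541 kb), 37.7 and 37.9% (362 and 305 kb), 67.3 and 67.5% (513 and 409 kb), and close to the chromosome end, at 98.6 and 99.2% in G. barbadense and 99.1% in G. hirsutum. On D01, with 2 and 3 such stretches, none was matched in this way. The typical gap was far shorter, with medians of 15.8 kb on A01 and 14.4 kb on D01 in G. barbadense and 10.8 and 16.6 kb in G. hirsutum.

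Along the arms the lists differed in how many islands they placed on A01. More than 5 Mb from the domain, A01 had 26.2 islands per Mb (25.2 to 27.2) and D01 23.8 (22.5 to 25.2) in G. barbadense. In G. hirsutum they had 45.4 (44.1 to 46.7) and 30.6 (29.2 to 32.2). The G. hirsutum A01 to D01 ratio of 1.48 was the smallest among the 13 pairs of that list, where the median was 1.57 and the largest 1.72. Its interval (log2 0.57, 0.48 to 0.65) covers the values of several other pairs, so counting error leaves that rank unsettled. In G. barbadense the ratio was 1.10, and it turned with a stricter false discovery rate of 1e-05, which left 10.9 islands per Mb on A01 and 13.2 on D01. In G. hirsutum that setting left A01 ahead, at 31.7 against 19.96.

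For strong arm islands, those of ratio 4 or more, the homoeologues went opposite ways in the lists, as they did in all 13 pairs. The A to D ratio ran from 0.448 to 0.755 over the pairs in G. barbadense and from 1.28 to 2.47 in G. hirsutum, so the direction is not particular to A01 and D01. In G. barbadense, A01 had 3.35 per Mb (3.003 to 3.72) and D01 6.04 (5.39 to 6.75), so that D01 had 1.81 times as many. A01 was the lowest of the 26 chromosomes of that list, whose median was 4.81. Its interval covered other A chromosomes, among them A06, A08 and A13 (3.43 each). All A chromosomes of that list, up to 4.42 on A11, lay below all D chromosomes, which began at 5.19 on D05. A low value is therefore not particular to A01. In G. hirsutum, A01 had 3.34 per Mb (3.01 to 3.71) and D01 2.39 (1.99 to 2.84), with A01 1.40 times as high. Between species A01 differed by less than counting error, while D01 was 2.53 times as dense in G. barbadense. The numbers behind these values were 347 and 313 islands in G. barbadense and 358 and 126 in G. hirsutum, on A01 and D01. Summed over all arm islands, whatever their ratio, ChIP reads exceeded scaled input reads by 2.04 and 2.17 times in G. barbadense and by 2.06 and 1.98 times in G. hirsutum.

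**Figure D4:**
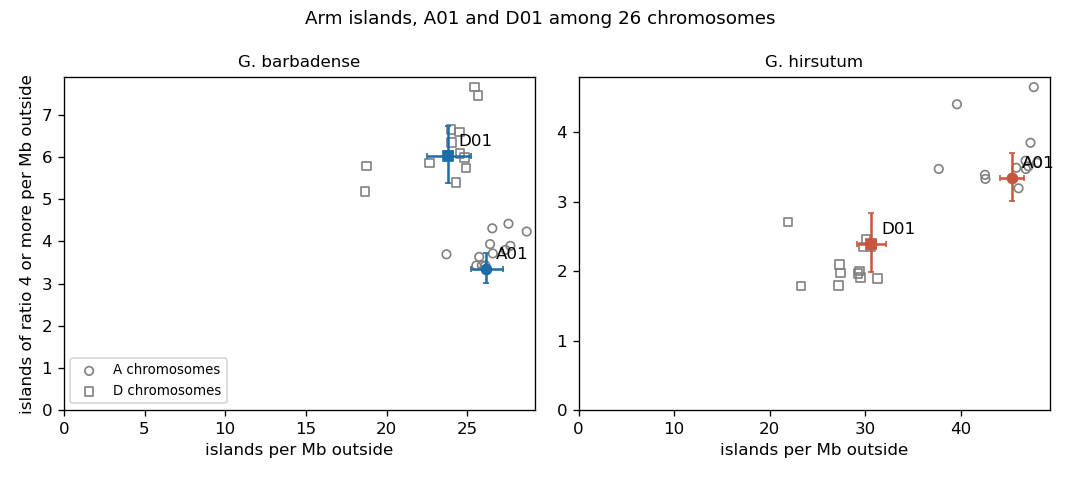
Islands of ratio 4 or more per Mb against all islands per Mb, both counted more than 5 Mb outside the domain, for each of 26 chromosomes; filled symbols are A01 and D01 with 95% exact Poisson intervals, open circles and squares the other A and D chromosomes. D01 lies above A01 at 6.04 against 3.35 in G. barbadense and below it at 2.39 against 3.34 in G. hirsutum.

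The strong arm islands held few ChIP reads. On G. barbadense A01 and D01 their median length was 800 and 1000 bp, the same as that of all domain islands, but they had a median of 27 and 29 ChIP reads against 74.5 and 71 in the domains, and 2 of 347 and 0 of 313 had 100 ChIP reads or more. In the domains 35.8% and 35.3% of all islands had that many. G. hirsutum strong arm islands had a median length of 800 bp on both chromosomes and a median of 38 ChIP reads. All domain islands there had medians of 44 on A01 and 54 on D01, a smaller contrast than in G. barbadense. In G. hirsutum, 4 of 358 and 2 of 126 strong arm islands had 100 ChIP reads or more, against 13.4% and 21.6% of domain islands. Among all G. hirsutum arm islands, whatever their ratio, 12.03% on A01 and 13.73% on D01 had that many. Their median was 55 ChIP reads on both chromosomes, so the domain medians there were not higher than those of all arm islands. In G. barbadense the shares over all arm islands were 1.732% on A01 and 1.457% on D01, far below those of the domains. When islands of under 40 ChIP reads were left out, strong arm islands fell to 0.434 per Mb on A01 and 0.887 on D01 in G. barbadense and to 1.56 and 1.12 in G. hirsutum. D01 was again higher in G. barbadense and A01 in G. hirsutum. At a ratio of 8 or more D01 was still higher in G. barbadense, at 1.72 against 0.858 per Mb, but G. hirsutum A01 and D01 had 0.467 and 0.436, a log2 difference of 0.10 (-0.64 to 0.88) that counting error covers.

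The arm islands of highest ratio rested on few reads, and all but 1 of their ratios are lower bounds. On G. barbadense A01 the top 3 islands more than 5 Mb away were at 103549001 to 103550200 (41 ChIP, 2 input reads), 18737801 to 18738800 (35 and 2) and 80140001 to 80141200 (32 and 0), with ratios of at least 22.4, 19.1 and 17.5. On D01 they were at 12598201 to 12599400 (37 and 2), 57700001 to 57701000 (36 and 2) and 45919001 to 45920000 (35 and 2), at no less than 20.2, 19.7 and 19.1. All 6 had 32 to 41 ChIP reads and fewer than 3 input reads.

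In G. hirsutum the top arm islands of A01 were at 9406201 to 9406800 (42 and 0), 109798601 to 109799000 (39 and 2) and 31671201 to 31671600 (35 and 2), with ratios of at least 16.9, 15.7 and 14.04. On D01 the first, at 19163001 to 19163600, had 41 ChIP and 3 input reads and a ratio of 16.5 (5.25 to 83.1). The others were at 23155201 to 23156000 (37 and 0) and 57547201 to 57548000 (34 and 2), with ratios of at least 14.9 and 13.6. As in G. barbadense, these islands rested on few reads, with 34 to 42 ChIP reads and at most 3 input reads.

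The distribution of strong islands along A01 differed in form between the lists. Over 10 equal parts of the chromosome, strong islands on G. barbadense A01 outside part 6 were densest towards the ends, at 5.56 and 5.13 per Mb in parts 1 and 2 and 4.17 in part 10, and sparser in parts 3 to 5 and 7 to 9, at 1.74 to 2.87. Of all islands there, 64 of 255 in part 1 and 48 of 266 in part 10 were strong, against 20 of 306 in part 5. On G. hirsutum A01 the ends were the sparsest, at 1.78 in part 1 and 2.45 in part 10, and part 5 and part 7 had 3.05 and 4.06. Islands of any ratio were sparsest there too. Strong ones were 21 of 326 in part 1 and 29 of 365 in part 10, against 36 of 619 in part 5 and 48 of 555 in part 7. As a share of islands the G. hirsutum ends were thus not low. Part 6, which holds the domain, had 35.8 and 14.4. On G. barbadense D01 the outer parts ranged from 4.89 to 7.74 per Mb without such a slope, and on G. hirsutum D01 they ranged from 1.09 to 3.44.

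Islands of any ratio were sparser at both ends of both chromosomes in both lists. Part 1 had 22.2 per Mb on A01 and 15.6 on D01 in G. barbadense and 27.6 and 20 in G. hirsutum. Part 10 had 23.1, 18.6, 30.9 and 23.1 in the same order. All other parts had between 23.8 and 97.9 per Mb in G. barbadense, and between 27.4 and 58.3 in G. hirsutum. Over 20 parts without those touching a domain, the density of all islands had a Spearman correlation between species of 0.40 on A01 (19 parts) and 0.63 on D01 (18 parts). For strong islands the values were -0.37 and -0.36. Between A01 and D01 the correlation of density was 0.81 in G. hirsutum and 0.20 in G. barbadense (18 parts each). The parts of a list share 1 pair of libraries and 1 assembly, and these correlations are descriptions.

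**Figure D5:**
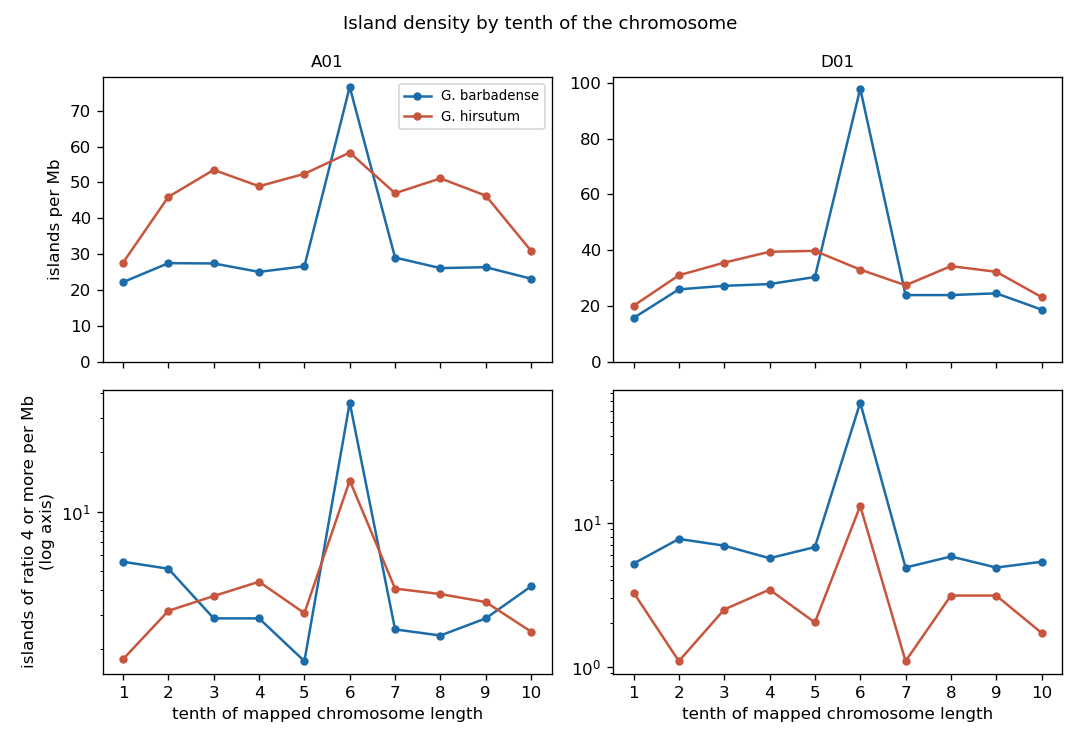
Islands per Mb (top) and islands of ratio 4 or more per Mb (bottom, log axis) in 10 equal parts of A01 (left) and D01 (right), counted from the low-coordinate end. Part 6 holds the domain; strong islands in parts 1 and 10 of A01 stand at 5.56 and 4.17 per Mb in G. barbadense and at 1.78 and 2.45, the lowest of the 10 parts, in G. hirsutum.

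The islands with the most input reads were weakly enriched. On D01 the one with the most lay at the first base of the chromosome in both lists, from 1 to 14200 in G. barbadense (4145 ChIP and 5686 input reads, ratio 1.20) and from 1 to 20600 in G. hirsutum (4827 and 4522, ratio 1.29). G. hirsutum A01 also began with such an island, from 1 to 15200 (4599 and 3983, ratio 1.39), but the one with the most input there lay from 2055801 to 2060600 (5598 and 4653, ratio 1.45). On G. barbadense A01 the first island started at 42001 with 66 input reads, and the one with the most input lay from 32549601 to 32558000 (1563 and 1713, ratio 1.496). Islands of 500 or more input reads numbered 2 on each chromosome, except for 6 on G. hirsutum A01. On G. barbadense D01 these 2 held 14.2% of all input reads in islands and 0.552% of the island length. Part 1 of that chromosome had a summed ratio of 1.59 beside a median island ratio of 3.06.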

How the data were processed

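CENH3 ChIP and input libraries from leaf of G. barbadense and G. hirsutum, 1 of each per species, were used as 2 deposited island lists; groups came from sample titles. Per the submitters' processing notes, reads went through Trimmomatic, Bowtie2 and SICER. Neither versions nor builds are named by any source used here. The list names record 200-bp windows, 400-bp gaps, a false discovery rate of 0.01 and the tag uniq. The lists have no header, and columns were read in SICER's usual order. The authors deposited raw read counts of ChIP and input per island, without normalization. Their p-value and q-value (false discovery rate) per island, also deposited, were used only for a stricter threshold. The authors' fold, a ratio, equalled ChIP over input counts times 1 constant per list, computed here as 1.64 and 1.20, except at islands with 0 input reads.

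From the counts, scaled ratios with an input floor of 3 reads, domains in bins of 100 kb, island densities and exact 95% intervals were computed with Python 3.11.15, numpy 2.4.6, pandas 2.3.3 and scipy 1.17.1. A domain was distinct when its maximum was at least 2 times any bin over 2 Mb away; gaps of up to 2 bins were bridged. The domain step was tested on simulated data. Library totals were not used, so depth is known only as reads in islands.

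The chromosomes, measures and thresholds were chosen with earlier results of these data known. Islands named per chromosome and list were the 3 of highest scaled ratio, the longest of ratio 4 or more in the domain, the 3 of highest ratio more than 5 Mb outside it and the one with the most input reads; ties went to more ChIP reads. Stretches without islands, islands of 500 or more input reads, and islands of 5 kb or more were looked at after values were seen. Alternatives changed the bin value, the islands used, the bin size, the domain threshold, the false discovery rate, the input floor and the minimum of ChIP reads.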

Additional observations from a re-analysis of the deposited data

Results flagged for a closer look

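Strong arm islands, those of ratio 4 or more lying over 5 Mb from the domain, were fewer on A01 than on D01 in G. barbadense and more frequent on A01 in G. hirsutum. The log2 of A01 over D01 was -0.85 (95% interval -1.08 to -0.63) in G. barbadense and 0.49 (0.19 to 0.79) in G. hirsutum. The values are given here because the species pointed in opposite directions, which does not single out this pair: over all 13 pairs the A to D ratio ran from 0.448 to 0.755 in G. barbadense and from 1.28 to 2.47 in G. hirsutum. With 1 ChIP library per species the difference was not tested.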

How the results depend on the processing

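Of 134 values recomputed under other settings, 90 stayed within their interval, inside the domain or within 1.5 times, 39 moved and 5 reversed. The authors' fold as bin value and an input floor of 1 moved none, but these 2 settings could change little. The fold equals the scaled ratio except at islands with under 3 input reads, and the summed domain ratio uses no floor. The 90 values include those of these 2 settings. With covered length as bin value, domain widths became 2.2 Mb on A01 of G. barbadense, and 0.7 and 0.5 Mb on A01 and D01 of G. hirsutum, the G. hirsutum midpoints moved to 54.8% and 0.391%, and the ratios were 13.5 and 16.2 (A01, D01) in G. barbadense and 2.23 and 1.48 in G. hirsutum. With islands of ratio 4 or more, ratios were 31.4 and 28.2 in G. barbadense and 11.1 on G. hirsutum D01, which the filter itself raises. Bins of 50 kb gave 32.1, 25.6 and, on G. hirsutum D01, 7.18. A threshold of 50%, which keeps only the core, gave 32.7, 37.1 and 10.8 for the same chromosomes, and a width of 0.6 Mb on G. hirsutum A01. A false discovery rate of 1e-05 gave ratios of 9.67 on A01 and 7.14 on D01 in G. hirsutum.

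The log2 of A01 over D01 for the domain ratio, 0.15 in G. barbadense, turned to -0.26 with covered length and to -0.18 at the 50% threshold, and was 0.32 with 50-kb bins. In G. hirsutum it was 0.65, and 0.44 at 1e-05. It turned to -0.092 (-0.25 to 0.070) with islands of ratio 4 or more and to -0.082 (-0.27 to 0.10) at 50%. Counting error covers both of these negative values. The cause of the changes was not tested. For arm islands per Mb the 1e-05 setting, which keeps fewer islands, left 10.9 and 13.2 in G. barbadense and 19.96 on G. hirsutum D01, and the log2 went from 0.14 to -0.28 in G. barbadense and from 0.57 to 0.67 in G. hirsutum. Islands of 40 or more ChIP reads left 9.72 and 7.47 in G. barbadense (log2 0.38). Strong arm islands per Mb were 0.858 and 1.72 in G. barbadense and 0.467 and 0.436 in G. hirsutum at a ratio of 8 or more, where the G. hirsutum log2 fell to 0.10 (-0.64 to 0.88). With 40 or more ChIP reads they were 0.434, 0.887, 1.56 and 1.12.

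No paired analysis was possible because each species had 1 ChIP and 1 input library. Depth limits the ratios of single islands: with under 3 input reads a ratio is a lower bound, and a stretch without an island has no value.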
